A study of Mus musculus with 18 samples.

Results

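Ndrg1, Egln3, Nqo1, Gclm, Hspa1a, Hspa1b and Pkm are 7 stress-response genes: hypoxia-induced genes, antioxidant genes, inducible heat-shock proteins and an enzyme of glycolysis. They were chosen by name from the authors' deposited lists of genes that differed between EED KO and WT macrophages, so their listing and their fold changes are what selected them and are given as a description. All 7 had at least 1 row in those lists, which hold 816 distinct gene symbols in all. The series compared macrophages grown from mouse bone marrow, with 18 RNA-seq libraries in 6 groups of 3. EED KO cells came from mice with both Eed alleles flanked by loxP and 1 LysM-Cre allele, and WT cells came from littermate controls, for which the sources used here state no alleles. LysM-Cre is driven from the lysozyme gene Lyz2 and is active in myeloid cells. Each genotype was studied unstimulated, LPS primed (bacterial lipopolysaccharide at 100 ng/ml for 24 h) and LPS tolerant (the same priming, a rest of 48 h and a second dose of 10 ng/ml for a time that is not given). All groups were differentiated in the same medium with L929-conditioned supernatant.

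EED belongs to the core of Polycomb repressive complex 2, which places the repressive methyl mark on lysine 27 of histone H3. Hypoxia-inducible factors (HIF) are transcription factors that prolyl hydroxylases mark for destruction when oxygen is present, and in macrophages LPS also stabilises HIF-1 alpha and raises glycolysis. NRF2 is released from its inhibitor KEAP1 by oxidants and switches on genes for glutathione synthesis and detoxification. Heat-shock factor 1 does the same for chaperones when proteins unfold.

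Of these 7 genes, 3 were higher in EED KO than in WT cells past an adjusted p of 0.05, all in the LPS tolerant state, where Ndrg1, Egln3 and Nqo1 stood 2.74- to 3.40-fold higher according to the authors' deposited table. In unstimulated cells 3 of the genes had a row, 2 lower (Hspa1a and Hspa1b) and 1 higher (Pkm), and 0 passed, against 19.4% of the 227 listed rows of that state. In LPS primed cells 3 had a row, Ndrg1 and Egln3 higher and Gclm lower, and again 0 passed, against 33.2% of 377 listed rows. In LPS tolerant cells 4 had a row, all higher, and 3 passed, against 21.2% of 419 listed rows that passed as higher and 23.6% that passed in either direction. These rows had already been selected by the authors: each has an unadjusted p under 0.05 and a log2 fold change of at least 0.75 in size. The shares therefore describe the listed rows and not all tests, and since the genes were picked from those rows nothing is read from them. No gene had a row in all of the 3 states. A missing row means that the gene did not meet the authors' criteria there, not that it was the same in both genotypes.

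**Figure D1:**
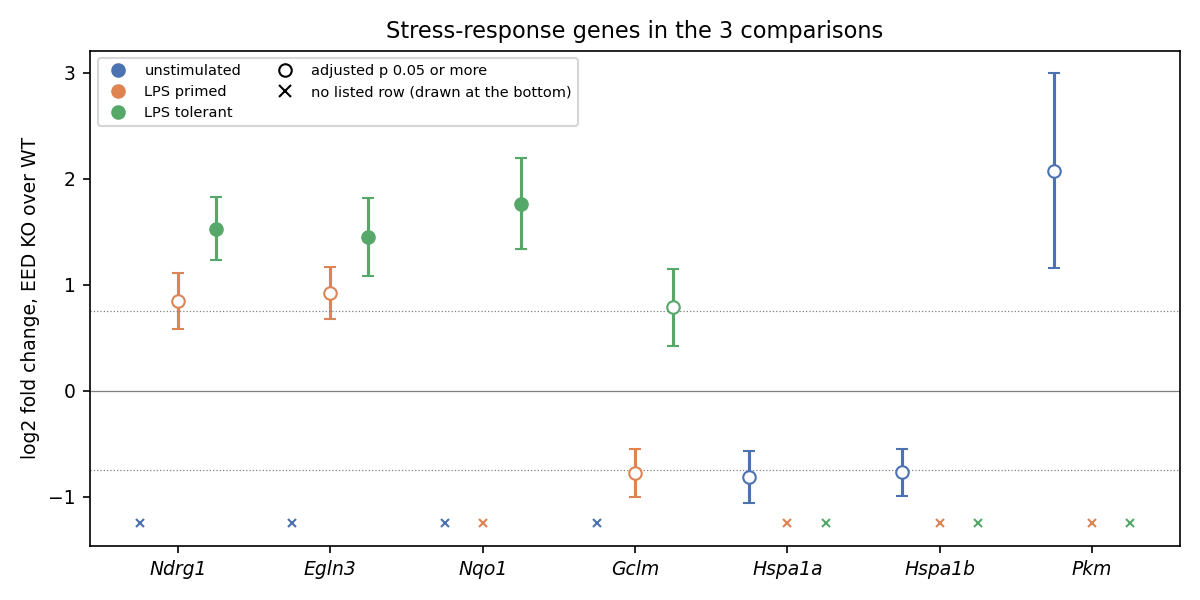
Log2 fold change of EED KO over WT cells for the 7 genes in the unstimulated, LPS primed and LPS tolerant state. Points are values of the authors' deposited table, filled where the adjusted p was under 0.05; bars are the approximate error on each side; dotted lines mark the smallest listed size, 0.75; crosses at the bottom mark states without a listed row. The 3 filled points, Ndrg1, Egln3 and Nqo1, are all in LPS tolerant cells, and Gclm lies on opposite sides of 0 in the LPS tolerant and LPS primed states.

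The values below are the authors' comparisons of 3 EED KO with 3 WT libraries, except that the labels do not show whether all 3 WT libraries entered the LPS primed comparison. Levels per library were not analysed here, so the overlap of the groups cannot be shown. As a guide to precision, an approximate error was derived for each gene by dividing its fold change on the log2 scale by the normal quantile that corresponds to its deposited p.

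Ndrg1 encodes a cytoplasmic protein induced by hypoxia and by differentiation signals. It was higher in EED KO cells in both LPS states. In the authors' deposited table its log2 fold change was 1.53 in LPS tolerant cells (2.88-fold, approximate error 0.30, adjusted p = 0.000212) and 0.85 in LPS primed cells (1.80-fold, approximate error 0.26, adjusted p = 0.196). The LPS tolerant value had the smallest adjusted p of the 10 rows of these genes. Among the 344 higher rows of that state it stood at place 44 by p and at place 60 by size.

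Egln3 encodes one of the prolyl hydroxylases that mark HIF for destruction, and is itself a HIF target. It followed Ndrg1. In the authors' deposited table its log2 fold change was 1.45 in LPS tolerant cells (2.74-fold, approximate error 0.37, adjusted p = 0.0321) and 0.93 in LPS primed cells (1.90-fold, approximate error 0.25, adjusted p = 0.0532). Its adjusted p thus lay below the threshold in LPS tolerant cells and just above it in LPS primed cells. That these results fall on different sides of a threshold does not show that they differ. The tolerant minus primed difference was 0.53 for Egln3, with an approximate error of 0.44. For Ndrg1 it was 0.68, with an approximate error of 0.40. The differences were thus 1.19 and 1.72 times their errors. Each such error, here and for Gclm below, combines the errors of both states as if these were independent. The same replicate numbers recur in each state, and the labels do not say whether they mark the same mice or cultures. The ratios are therefore a rough guide only. With errors taken from a t distribution with 4 degrees of freedom, the same differences were 4.82 and 6.40 times their errors. That distribution is a poor match to the deposited p. Eed in LPS tolerant cells had an unadjusted p of 1.25e-27 in the authors' deposited table. Under that t distribution, such a p needs an error far too small for 3 against 3 libraries. The larger ratios therefore carry little weight.

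The Egln3 start region is shown because Egln3 rose and because hypoxia response elements share a short core. The sequence is the 250 bases before the start in RefSeq's GRCm38.p6 annotation, chr12:54203875-54204124 on the minus strand, an older build than the GRCm39 named in the submitters' processing notes. Capitals mark ACGTG or GCGTG on either strand.

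Egln3: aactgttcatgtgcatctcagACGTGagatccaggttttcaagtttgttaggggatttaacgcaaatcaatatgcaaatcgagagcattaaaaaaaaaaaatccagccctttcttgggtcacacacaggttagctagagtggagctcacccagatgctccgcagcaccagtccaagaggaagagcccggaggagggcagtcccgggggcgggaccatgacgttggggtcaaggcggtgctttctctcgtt

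It holds 1 match, ACGTG, whose first base lies at position -229 from the start. Of 32841 start regions of this length in the same table, 38.6% hold either core, so a match is common and describes the letters only. No window for Ndrg1 was in the table.

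The HIF list holds 40 genes of the pathway and its targets, and those with a row were all higher in EED KO than in WT cells. In LPS tolerant cells 4 of the 40 were listed, all 4 higher and all 4 past the adjusted threshold, 2 of them the chosen Ndrg1 and Egln3. Over all listed rows of that state, 82.1% were higher, and 21.2% were higher past the threshold. The list was chosen with earlier results of these data known, so its other genes are no independent check. Nothing is read from a comparison with these shares. Besides Ndrg1 and Egln3, the log2 fold changes in the authors' deposited table were those of Lox, an enzyme that crosslinks collagen, at 1.43 (adjusted p = 0.000811), and P4ha2, a subunit of collagen prolyl hydroxylase, at 1.33 (adjusted p = 0.00769). Both enzymes modify collagen. The median of the 4 log2 fold changes was 1.44, beside 0.92 over the higher rows and 0.86 over all listed rows of that state, but 2 of the 4 values are those of Ndrg1 and Egln3, which were chosen on them. In LPS primed cells 4 were also listed, all higher, as were 79.8% of all listed rows of that state. P4ha2 alone passed, with a value of 1.33 in the authors' deposited table (adjusted p = 0.0319). Over all listed rows of LPS primed cells, 104 of 377 passed as higher. Ddit4, an inhibitor of mTOR signalling that responds to stress, stood at 0.83 (adjusted p = 0.55) there. In unstimulated cells none of the 40 had a row. The HIF subunits Hif1a, Epas1 and Arnt, and Vegfa, Slc2a1 and Bnip3, well-known HIF targets, had no row in any state.

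Nqo1 encodes a quinone reductase and is a standard readout of NRF2. Its only row was in LPS tolerant cells, where according to the authors' deposited table it rose by 1.77 on the log2 scale (3.40-fold, approximate error 0.43, adjusted p = 0.0205). This was the largest of the fold changes that passed among the 7 genes, and it stood at place 42 by size among the 344 higher rows.

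Gclm encodes the modifier subunit of glutamate-cysteine ligase, the first enzyme of glutathione synthesis. It was the only one of the 7 genes listed in opposite directions. In the authors' deposited table its log2 fold change was 0.79 in LPS tolerant cells (1.72-fold higher, approximate error 0.36, adjusted p = 1) and -0.78 in LPS primed cells (1.72-fold lower, approximate error 0.23, adjusted p = 0.133). Neither value passed the adjusted threshold, and both lie close to the smallest listed size. The tolerant minus primed difference was 1.57 with an approximate error of 0.43, 3.67 times its error. With the t distribution, which carries little weight here, it was 6.27 times. Each listed row has a size of at least 0.75 and an unadjusted p under 0.05. Any gene listed in opposite directions must therefore show a large difference relative to its error. Since Gclm was also chosen on these values, the difference was not tested. Its rows in the LPS states can also stand for different parts of the gene, as set out below.

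The start regions of Nqo1 and Gclm are shown side by side because both are NRF2 targets while only Nqo1 passed. They are the 250 bases before the start in the same RefSeq table (GRCm38.p6), chr8:107403206-107403455 on the minus strand and chr3:122245307-122245556 on the plus strand. Capitals mark TGACNNNGC, the antioxidant response element core, and the hypoxia cores ACGTG and GCGTG, each on either strand.
Nqo1: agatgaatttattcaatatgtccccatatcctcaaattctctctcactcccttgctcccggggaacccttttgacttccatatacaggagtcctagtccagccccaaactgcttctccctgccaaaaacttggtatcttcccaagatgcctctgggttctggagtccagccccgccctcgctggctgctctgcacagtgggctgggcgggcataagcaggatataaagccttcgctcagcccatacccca
Gclm: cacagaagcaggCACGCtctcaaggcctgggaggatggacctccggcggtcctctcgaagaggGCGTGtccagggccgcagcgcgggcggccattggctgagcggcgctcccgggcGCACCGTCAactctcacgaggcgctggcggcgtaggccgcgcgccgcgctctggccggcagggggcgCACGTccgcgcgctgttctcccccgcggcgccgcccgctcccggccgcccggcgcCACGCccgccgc

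The Gclm window holds 1 antioxidant match, on the minus strand at positions -134 to -126, and 4 hypoxia cores, and no matches overlap. The Nqo1 window holds none of these letters, which says nothing of elements farther away. Of all windows in the table, 10.2% hold TGACNNNGC.

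The NRF2 list holds 45 pathway genes and targets, and was also chosen with earlier results of these data known. In LPS tolerant cells 6 were listed, all 6 higher, as were 82.1% of all listed rows of that state. Nqo1 alone passed, where 21.2% of all listed rows passed as higher. In the authors' deposited table Gclc, the catalytic partner of Gclm, and the glutathione transferases Gstp1 and Gsta3 stood at 0.83, 0.87 and 0.82 on the log2 scale, and Ephx1, an epoxide hydrolase, at 0.75, and their adjusted p started at 0.124. In LPS primed cells 5 were listed, 4 lower and 1 higher, whereas 79.8% of all listed rows of that state were higher. The higher gene and 1 of the 4 lower genes passed, where 33.2% of all listed rows passed. According to the authors' deposited table Prdx1, a peroxiredoxin that removes peroxides, fell by 0.90 on the log2 scale (adjusted p = 0.00914). Gstm1, a glutathione transferase, and Cat, catalase, had values of -0.90 and -0.77 in the authors' deposited table (adjusted p = 0.0533 and 0.0547). The higher gene was Fth1, the ferritin heavy chain that stores iron, which in the authors' deposited table rose by 4.24 (adjusted p = 7.34e-05). The median log2 fold change over the listed genes was 0.83 in LPS tolerant and -0.78 in LPS primed cells, beside 0.86 and 0.96 over all listed rows of those states. Only Gclm of this list had a row in both states, so the opposite medians come from largely different genes. In unstimulated cells none of the 45 had a row, and Nfe2l2, which encodes NRF2, Keap1 and Hmox1, heme oxygenase, had none in any state.

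**Figure D2:**
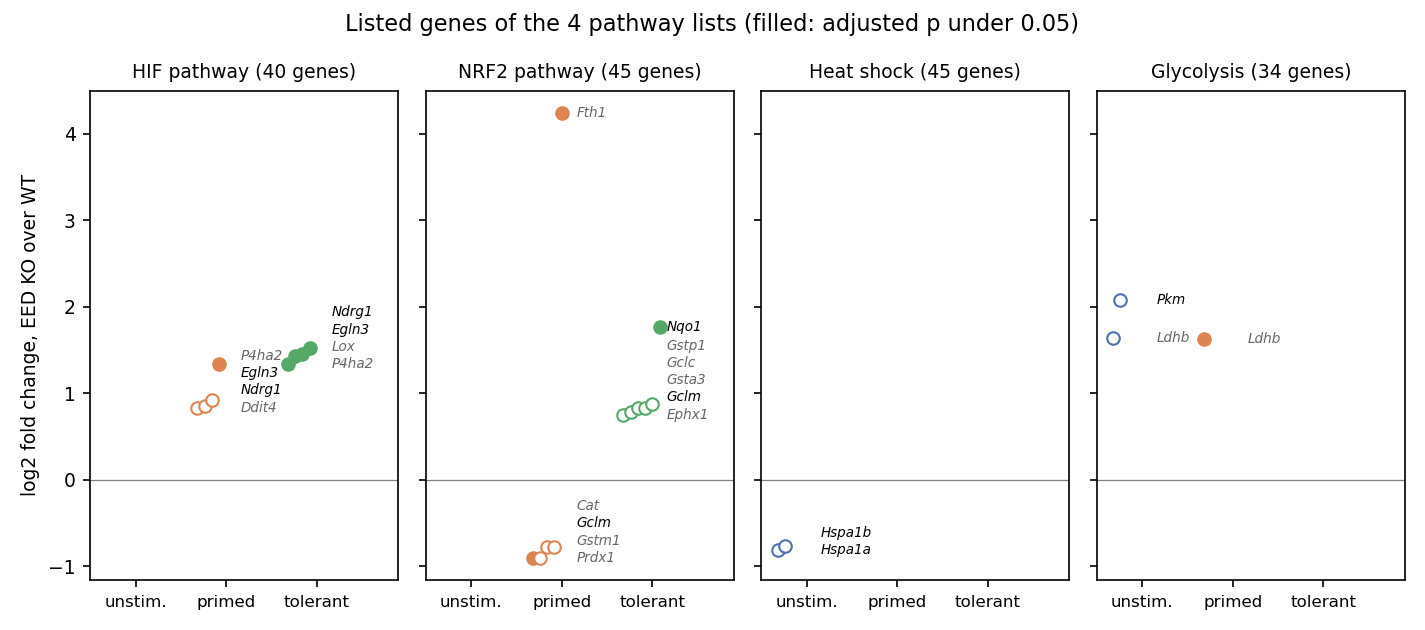
Log2 fold change of EED KO over WT cells for each listed gene of the HIF, NRF2, heat-shock and glycolysis lists, by state, from the authors' deposited table, with filled points for adjusted p under 0.05 and the 7 genes named in black. The 4 listed HIF genes of LPS tolerant cells lie between 1.33 and 1.53 and are all filled. All 6 listed NRF2 genes are above 0 in LPS tolerant cells and 4 of 5 are below 0 in LPS primed cells. The 7 genes were chosen on their values, and the lists were chosen with earlier results of these data known.

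Hspa1a and Hspa1b encode the inducible chaperone HSP70, which refolds damaged proteins. Both had a row in unstimulated cells alone, and both were lower in EED KO cells there without passing the adjusted threshold. Hspa1a in the authors' deposited table stood at -0.82 (1.76-fold lower, approximate error 0.25, adjusted p = 0.489) and Hspa1b at -0.77 (1.71-fold lower, approximate error 0.23, adjusted p = 0.396). These values lie within each other's errors. They may share reads: of the distinct 150-base windows of the GENCODE vM21 transcripts, 38.1% of those of Hspa1a and 40.5% of those of Hspa1b occur unchanged in the other gene, so a read of 150 bases from such a stretch matches both. The sources used here do not state how the authors assigned such reads.

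The start regions of this pair are shown because they are near copies as well. They are the 250 bases before each start, chr17:34972157-34972406 and chr17:34959239-34959488, both on the minus strand of GRCm38.p6 in the RefSeq table. Capitals mark GAANNTTC, a pair of inverted heat-shock element units, which reads the same on both strands.
Hspa1a: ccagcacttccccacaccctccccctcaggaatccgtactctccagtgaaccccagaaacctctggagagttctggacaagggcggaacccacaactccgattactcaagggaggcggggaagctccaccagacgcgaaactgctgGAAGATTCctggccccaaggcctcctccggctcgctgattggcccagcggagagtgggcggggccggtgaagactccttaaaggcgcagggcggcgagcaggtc
Hspa1b: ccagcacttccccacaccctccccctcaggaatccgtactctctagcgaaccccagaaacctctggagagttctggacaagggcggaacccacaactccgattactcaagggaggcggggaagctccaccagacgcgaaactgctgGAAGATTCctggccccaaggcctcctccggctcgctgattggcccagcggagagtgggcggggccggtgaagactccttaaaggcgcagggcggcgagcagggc

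The windows are identical at 247 of 250 positions, and each holds GAANNTTC once, at positions -104 to -97. Of all windows in the table, 6.70% hold it. The genes are direct neighbours on chromosome 17, in the H2 (major histocompatibility) region. In RefSeq's GRCm38.p6 order of protein-coding genes, H2-Aa lies 32 genes to one side of Hspa1b and H2-Q1 34 genes to the other. Of the 67 genes from H2-Aa to H2-Q1, 4 were listed in unstimulated cells, Hspa1a and Hspa1b lower and H2-Aa and H2-Eb1 higher. In both LPS states H2-Aa and H2-Eb1 were listed as higher and H2-Q1 as lower. Both ends of the span are genes with listed rows, and the counts depend on that choice. Just outside it, H2-Ab1 was listed as higher in each state. H2-Q2, beyond H2-Q1, was listed as lower in unstimulated and LPS primed cells. In LPS tolerant cells H2-Q2 had both a higher and a lower row. The log2 fold change of H2-Q1 in the authors' deposited table was -9.45 in LPS primed cells (adjusted p = 3.72e-05). In LPS tolerant cells it was -13.12 (adjusted p = 4.06e-106). Any bearing of this on Hspa1a and Hspa1b was not tested. Hspa1l, next to Hspa1a and a member of the same HSP70 family, had no row in any state.

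No other gene of the heat-shock list, 45 chaperones, co-chaperones and heat-shock factors, had a row in any state. Hsph1, Dnajb1, Hspb1 and Bag3, which are induced with HSP70 by heat shock, were among those without one.

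Pkm encodes pyruvate kinase M, which makes pyruvate in the last step of glycolysis. Its only row was in unstimulated cells, at 2.08 on the log2 scale (4.22-fold higher in EED KO cells, approximate error 0.92) in the authors' deposited table. This was the largest value among the 7 genes and also the least precise, with an adjusted p of 1 and place 159 of 174 by p among the higher rows. GENCODE vM21 gives Pkm 11 transcripts and 35 distinct exons, and 7.22% of its 150-base windows also occur in other genes. Of the 34 genes of the glycolysis list, Ldhb, a lactate dehydrogenase subunit, was the other one with a row. In the authors' deposited table Ldhb rose by 1.63 in LPS primed cells (adjusted p = 2.16e-05) and stood at 1.64 in unstimulated cells (adjusted p = 0.064), on the log2 scale. No gene of the list had a row in LPS tolerant cells, and the other isozyme gene, Ldha, had none in any state.

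**Figure D3:**
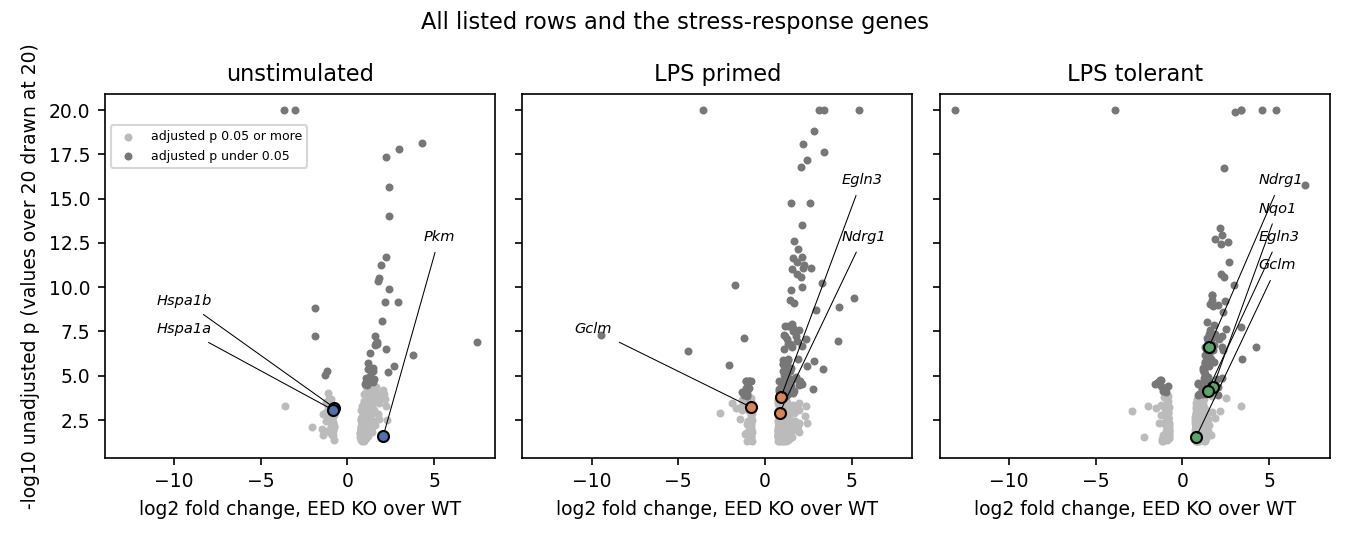
All listed rows of each state in the authors' deposited table, with the log2 fold change of EED KO over WT cells on the x axis and -log10 of the unadjusted p on the y axis (values over 20 drawn at 20). Large coloured points are the 7 genes; Ndrg1, Nqo1 and Egln3 lie among the dark points with adjusted p under 0.05 in LPS tolerant cells, and Pkm lies near the bottom in unstimulated cells.

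The LPS states were also compared gene by gene. In all, 111 symbols had a single row in both LPS states, 26.6% of the symbols listed in LPS tolerant and 29.4% of those in LPS primed cells. Of these, 90 were higher in both, 14 lower in both and 7 opposite. Ndrg1 and Egln3 belong to the 90, and to 60 symbols that were higher in both LPS states with no row in unstimulated cells. Gclm belongs to the 7, of which 3 were higher in LPS tolerant and lower in LPS primed cells. Ordered by the tolerant minus primed difference, whose median over the 111 was -0.09, 2 symbols lay above Gclm, 5 above Ndrg1 and 8 above Egln3. These genes were chosen on their listed values in both states, so nothing is read from their places in that order. No gene among the 7 had a row in both an LPS state and the unstimulated state.

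**Figure D4:**
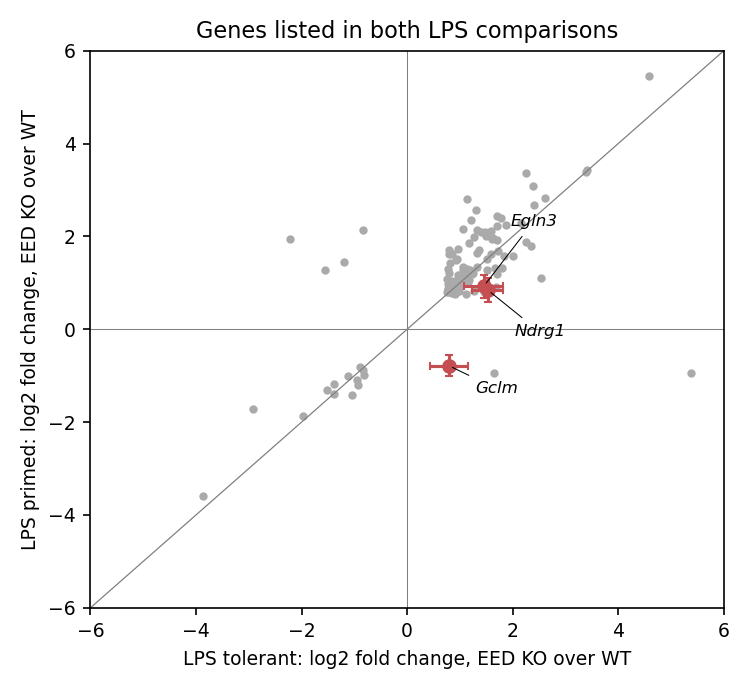
Log2 fold changes of EED KO over WT cells for genes listed in both LPS states of the authors' deposited table, LPS tolerant on the x axis and LPS primed on the y axis, with the diagonal of equal values. Red points with approximate errors are Egln3, Ndrg1 and Gclm, all below the diagonal. Of the 111 points 110 are drawn, and 1, H2-Q1, lies outside the axes.

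Some facts of the series bear on these values. Eed was lower in EED KO cells in each state, at -3.04, -3.59 and -3.87 in the order unstimulated, LPS primed and LPS tolerant, in the authors' deposited table. Lyz2, which carries the Cre, fell in each state as well, and of the 10 macrophage markers checked only Mertk also had a row in the authors' deposited table, at 0.79 in LPS primed cells (adjusted p = 0.374). Of 62 markers of 6 other cell types, 2, 3 and 4 were listed in the same order of states. In LPS tolerant cells these were Mmp9, Ppbp, Fscn1 and Dcn, all higher, at 3.41, 2.03, 1.30 and 1.35 in the authors' deposited table. The part of these markers in the values of the stress-response genes was not tested. In bulk samples a change in cell makeup and a change of RNA per cell cannot be told apart. If the adjusted p follow the Benjamini-Hochberg procedure, their ratio to the unadjusted p requires at least 413233, 189858 and 338297 tests in the same order, against 55450 genes in GENCODE vM21. A row can therefore stand for a part of a gene, such as an exon or a transcript, and its value need not hold for the whole of it. Rows of the same gene in the LPS states can also stand for different parts. H2-Q2, for example, had both a higher and a lower row in LPS tolerant cells. The tolerant minus primed differences of Egln3, Ndrg1 and Gclm therefore need not be changes in the same quantity.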

How the data were processed

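RNA-seq was measured in 18 libraries of mouse bone marrow-derived macrophages, 3 for each of 6 groups. Per the labels' protocols, a stranded mRNA kit was used and both ends were sequenced for 150 bases. GRCm39, HISAT2, R 4.0.3 and edgeR appear in the submitters' processing notes; no settings, annotation or filters are stated in the sources used here. As deposited by the authors, the values are log2 fold changes (the base is not stated and was taken as 2), with p-values and adjusted p-values, in 6 lists, 1 higher and 1 lower per state. The direction was read as EED KO over WT because Eed is in each lower list. Depth per library is unknown. The labels do not say whether replicates are separate mice, so p-values may measure partly technical spread. One WT LPS primed library (replicate 1) lacks the label that ties the others to a comparison.

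Rows were matched on gene symbol, and a gene was called at a deposited adjusted p under 0.05; no model was fitted. Every listed gene of 4 pathway lists is named. Members and lists were chosen with earlier results of these data known. Shared 150-base windows came from GENCODE vM21 (GRCm38) transcripts, either strand. Alternatives were adjusted p under 0.01 or 0.1, every listed row, a log2 fold change of at least 1, matching on Ensembl identifiers, and errors from a t distribution. Python 3.11.15, pandas 2.3.3 and SciPy 1.17.1 were used.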

Additional observations from a re-analysis of the deposited data

How the results depend on the processing

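At an adjusted p under 0.01, 1 of the 7 genes, Ndrg1, was called higher in LPS tolerant cells, against 3 at 0.05. At an adjusted p under 0.1, Egln3 was added in LPS primed cells, giving 1 higher gene there. Counting every listed row gave 1 higher and 2 lower genes in unstimulated cells, and 2 higher and 1 lower in LPS primed cells, by construction. A minimum log2 fold change of 1 and matching on Ensembl identifiers gave the same counts for the 7 genes. With t distribution errors, the tolerant minus primed difference was 4.82 times its error for Egln3, 6.40 for Ndrg1 and 6.27 for Gclm. With the normal quantile these were 1.19, 1.72 and 3.67 times. All these ratios treat the LPS states as independent, which the labels do not settle. As set out for Eed above, the deposited p are too small for that t distribution, so the larger ratios carry little weight. The test behind the deposited p is not given in the sources used here. Of 96 alternatives for the pathway lists, 85 kept their count within 1.5 times and 11 moved. Most of the 85 were 0 against 0 because no gene of the list had a row there. Those could not move, so the 85 are no measure of stability. No replicate was left out in turn, and no other normalization or filter on low counts was tried. No paired analysis was possible because the lists hold comparisons of groups and no values per library. Without depth per library, no limit of detection can be given for genes without a row.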

Other observations

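Gclm shared its reversal between the LPS states with 6 other symbols, named here after their values had been seen. Tle2, a transcriptional corepressor, had the widest, at 5.38 in LPS tolerant cells (adjusted p = 1.03e-24) and -0.94 in LPS primed cells (adjusted p = 0.161), as log2 fold changes of EED KO over WT in the authors' deposited table. Mtus1, which encodes a microtubule-associated protein, stood at -1.20 in LPS tolerant cells (adjusted p = 1) and rose by 1.45 in LPS primed cells (adjusted p = 4.61e-07) in the authors' deposited table. Mndal, of the interferon-inducible p200 family, stood at -0.84 in LPS tolerant cells (adjusted p = 0.698) and rose by 2.14 in LPS primed cells (adjusted p = 0.0129) in the authors' deposited table. Saa2, an acute-phase protein gene, stood at -2.21 and 1.95 in the same order, with adjusted p of 1 and 0.396 in the authors' deposited table. The predicted genes Gm10499 and Gm2427 were the remaining ones. None of the 7 passed the adjusted threshold in both states, and the difference between states was tested for none of them. Since rows can stand for different parts of a gene, a reversal need not be a change in the same quantity.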
